A study of Rattus norvegicus with 172 samples.

Results

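Granule cells of the dentate gyrus were compared between rats killed at kindling stage 5 and rats killed at kindling stage 2, which are the last and the first of the 3 stages sampled. The comparison holds 24 rats of the 164 in the series: 12 at stage 5 and 12 at stage 2, with 6 of each from either of the 2 laboratories that ran the kindling model, called A and B here. All were male Sprague-Dawley rats of 175 to 250 g. Each laboratory also had 6 control rats and 6 rats at stage 4, so that the kindling experiment held 48 rats, and these other groups are used below for reference. Granule cells were cut by laser from stained sections 10 µm thick, at least 10 ng of RNA with an integrity number above 7 was obtained per rat, and biotin-labelled cRNA was hybridised to one-colour Affymetrix arrays. The site and schedule of stimulation, the treatment of the controls and the time between the last seizure and death are not given in the sources used here. Members were chosen by the laboratory and stage in the labels, without any measured value.

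Kindling is a model in which a brief electrical stimulus to the limbic system, repeated over days, evokes seizures that grow in length and severity although the stimulus stays the same. Severity is scored on Racine's scale, where low stages are mouth and head movements and the highest stage is a generalised seizure with rearing and falling. The dentate gyrus is the main entrance to the hippocampus. Its granule cells receive the input of the entorhinal cortex, excite mossy cells and CA3 pyramidal cells through mossy fibres, and are known for peptide and neurotrophin genes that respond to seizures. Laser capture takes the cell body layer, so RNA of neighbouring glia, vessels and interneurons comes with it.

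Values are log2 of the array signal plus 16, which reduces the apparent fold change of dim genes. Of 10761 genes tested, 285 differed between stage 5 and stage 2 (2.65% of the genes tested, limma with Benjamini-Hochberg adjusted p under 0.05, mean of both laboratories, n = 12 against 12). At stage 5, 87 genes were higher (0.808%) and 198 were lower (1.84%). Most differences were small. The median over the 87 higher genes was 0.30 on the log2 scale, over the 198 lower genes it was -0.39, and only 5 higher and 10 lower genes reached a 2-fold difference. The spread was estimated over all 48 kindling rats, and the count rested on that choice: with only the 24 stage 2 and stage 5 rats in the fit 58 genes passed (10 higher, 48 lower; 57 of them among the 285), and with all groups of the series 51 passed (11 and 40; 49 among the 285). The threshold fell between Pcdh10, at an adjusted p of 0.0495, and Rbm12, at 0.0504.

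Rats of 1 group differed among themselves, and some stood nearer to another group than to their own. In laboratory A, stage 5 rat 1 lay near the controls over the 87 higher genes, with a median of 0.04 above them against 0.36 to 0.44 in the other 5 stage 5 rats. Stage 2 rats 2 and 4 were at 0.26 and 0.27, against -0.10 to -0.01 in the other 4 stage 2 rats. The labels of stage 2 rat 4 name kainate as its model, but a kindling laboratory and a kindling stage, and it was kept with the stage 2 rats. In laboratory B, stage 5 rats 2, 3 and 6 were at 0.20, 0.16 and 0.12, between the stage 2 rats (-0.11 to 0.04) and the other stage 5 rats (0.40 to 0.47). These medians describe genes chosen on the same rats. None of the 24 had a correlation with its group more than 0.02 under that of the other rats. Without stage 5 rat 1 of laboratory A, 649 genes differed (244 higher, 405 lower), and these held 284 of the 285. Without stage 2 rat 4 of laboratory A the count was 463, and 279 of the 285 were among them.

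**Figure D1:**
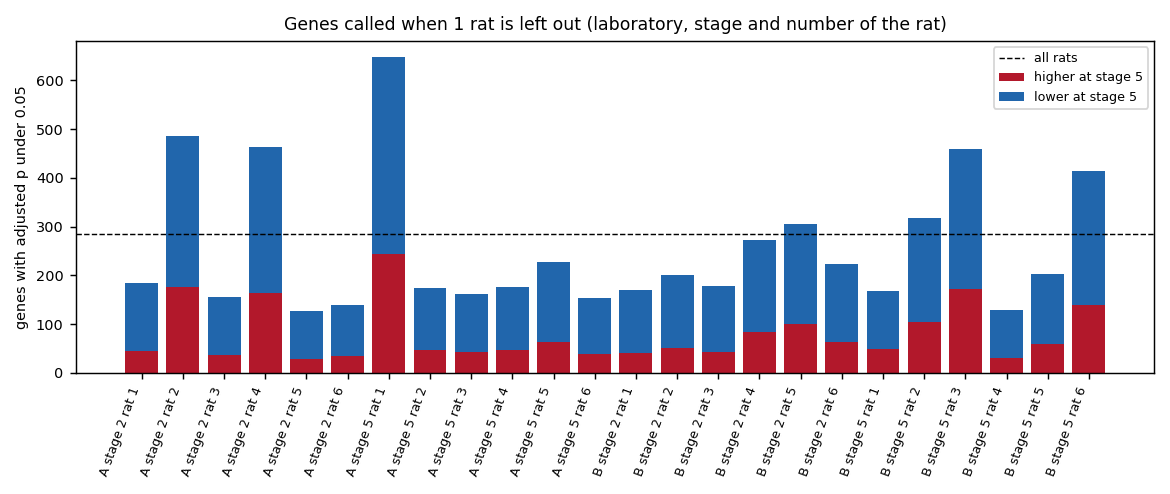
Number of genes with an adjusted p under 0.05 (y axis, limma) when 1 of the 24 rats is left out (x axis: laboratory, stage and rat number), split into genes higher (red) and lower (blue) at stage 5. The broken line is the count with all rats, 285; it was lowest without rat 5 of laboratory A stage 2, 126, and highest without rat 1 of laboratory A stage 5, 649.

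The count moved by more than 1.5 times in either direction when any of several single rats was left out. In laboratory A it was 126 without stage 2 rat 5, 139 without rat 6, 155 without rat 3, 185 without rat 1 and 486 without rat 2. Leaving out a stage 5 rat of that laboratory gave 154 without rat 6, 161 without rat 3, 173 without rat 2 and 175 without rat 4. In laboratory B it was 169 without stage 2 rat 1 and 179 without rat 3, and for stage 5 it was 128 without rat 4, 168 without rat 1 and 460 without rat 3. Of the 64 genes named here, 54 passed the test, and 9 of those passed it under every one of the 63 alternatives run: Ackr3, Prss23, Efr3a, Necab3, Ddit4l, Fst, Vstm2l, Plscr1 and Sdc2. These alternatives include 48 tests that each leave out 1 kindling rat. Controls and stage 4 rats, which enter only through the spread, were among those left out. The 48 tests lost the call of Gpc3 in 15, of Nr3c1 in 14, of Cpe in 12 and of Egfr and Nr4a3 in 11 each. They lost that of Dusp1 in 4, of Lpar1 in 3 and of Cacna2d3 in 2.

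The same fit gave few genes within a single laboratory. In laboratory A, 9 genes passed (3 higher, 6 lower), and in laboratory B, 23 passed (5 higher, 18 lower). Without stage 5 rat 1 the laboratory A count was 175, and without stage 5 rat 6 the laboratory B count was 158, against a lowest count of 1 and of 0 when another rat was left out. No gene differed between the laboratories in its stage 5 minus stage 2 difference by limma's adjusted p, with 862 genes at an unadjusted p under 0.05. The smallest adjusted p of that test was 0.205, for Zfp68, a zinc finger gene, which was higher at stage 5 by 0.23 in laboratory A and lower by a log2 difference of -0.31 in laboratory B. All 285 genes had the same sign in both laboratories, which their selection on the mean favours, against 6032 of the 10761 genes tested. Across all genes the differences of both laboratories correlated at 0.36 (Pearson) and 0.21 (Spearman), a description over genes, which are not independent. In no gene did stage 5 and stage 2 rats separate completely in both laboratories (0% of the genes tested). They separated in 66 of the 10761 genes in laboratory A and in 73 of the 10761 in laboratory B. Among the called genes, these were 4 higher and 3 lower in A, and 8 higher and 27 lower in B.

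**Figure D2:**
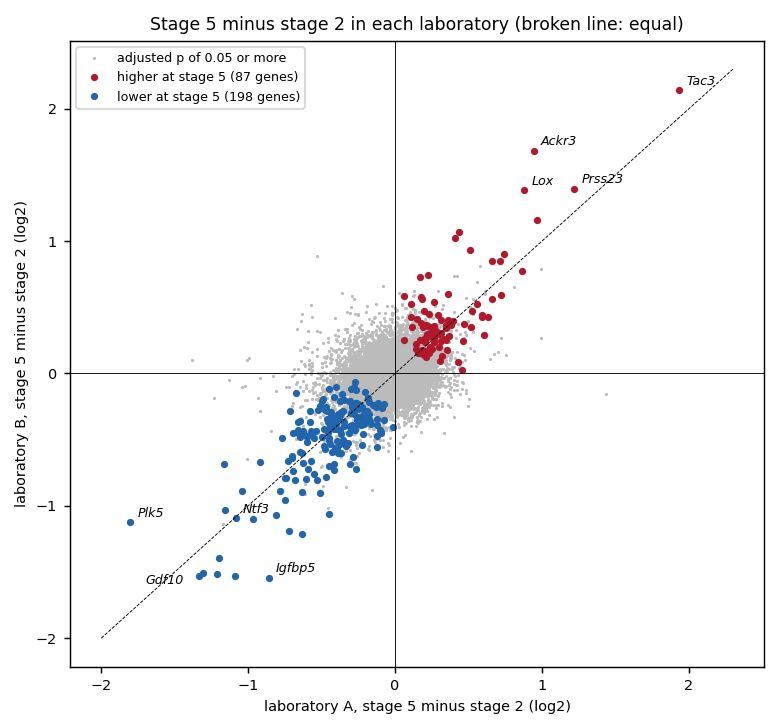
Stage 5 minus stage 2 difference (log2) of each gene in laboratory A (x axis) and laboratory B (y axis), with the 87 genes called higher in red, the 198 called lower in blue and the other genes tested in grey. The called genes run from Plk5 and Gdf10 at the lower left to Tac3 at the upper right. All have the same sign in both laboratories, which their selection on the mean favours. Some lie off the broken line of equal difference, such as Serinc2 at 0.44 in A and 1.07 in B.

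The neuropeptide gene Tac3, which encodes the precursor of neurokinin B, had the largest rise. In laboratory A its log2 value at stage 2 ran from 5.71 to 9.34 with a median of 6.13, and at stage 5 from 5.64 to 10.09 with a median of 9.53. In laboratory B stage 2 rats lay between 5.20 and 6.16 (median 5.76) and stage 5 rats between 5.23 and 9.65 (median 8.50). The groups overlapped in both laboratories, because stage 5 rat 1 of laboratory A (5.64) and stage 5 rats 3 and 6 of laboratory B (5.23 and 5.71) stayed at the level of the controls, whose medians were 5.86 and 5.84. Stage 2 rats 2 and 4 of laboratory A, at 8.76 and 9.34, were as high as stage 5 rats. The mean difference was 2.04 ± 0.51 on the log2 scale (SE), or 4.10-fold (adjusted p = 0.0224). It was 2.37 without stage 5 rat 1 of laboratory A, and the call was lost in 1 of the 48 tests that leave out a rat.

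Prodynorphin, Pdyn, the precursor of the dynorphin opioid peptides of mossy fibres, moved the other way. At stage 2 its values ran from 9.08 to 10.51 in laboratory A (median 10.16) and from 10.45 to 11.45 in laboratory B (median 10.63). At stage 5 they ran from 7.04 to 10.07 (median 8.95) and from 6.69 to 11.02 (median 9.63). Here the order of the rats differed from that of Tac3: stage 5 rat 1 of laboratory A was at 8.59, inside its group, and the lowest rat of laboratory B was rat 5. The mean difference was -1.30 ± 0.31 (adjusted p = 0.0165).

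Of the 25 neuropeptide and granule protein genes measured, 3 rose and 1 fell (12% and 4%, against 0.808% and 1.84% of all genes). This list and the gene lists below were chosen with earlier results of these data known. Their shares beside those of all genes are therefore a description and not a test. Besides Tac3 the rises were small: Chgb, the granule protein chromogranin B, rose by 0.26 ± 0.06 and Cpe, the carboxypeptidase that trims peptide precursors, by 0.18 ± 0.05. The remaining 21 did not pass. Among them Trh, thyrotropin-releasing hormone, had a difference of 0.89 ± 0.38 (adjusted p = 0.202), with stage 5 medians of 7.68 and 7.32 against stage 2 medians of 6.31 and 6.27. Neuropeptide Y, Npy, had a difference of 0.18 ± 0.19 (adjusted p = 0.694), Vgf one of -0.42 ± 0.13 (0.0573), and Penk, proenkephalin, one of -0.23 ± 0.17 (0.519).

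**Figure D3:**
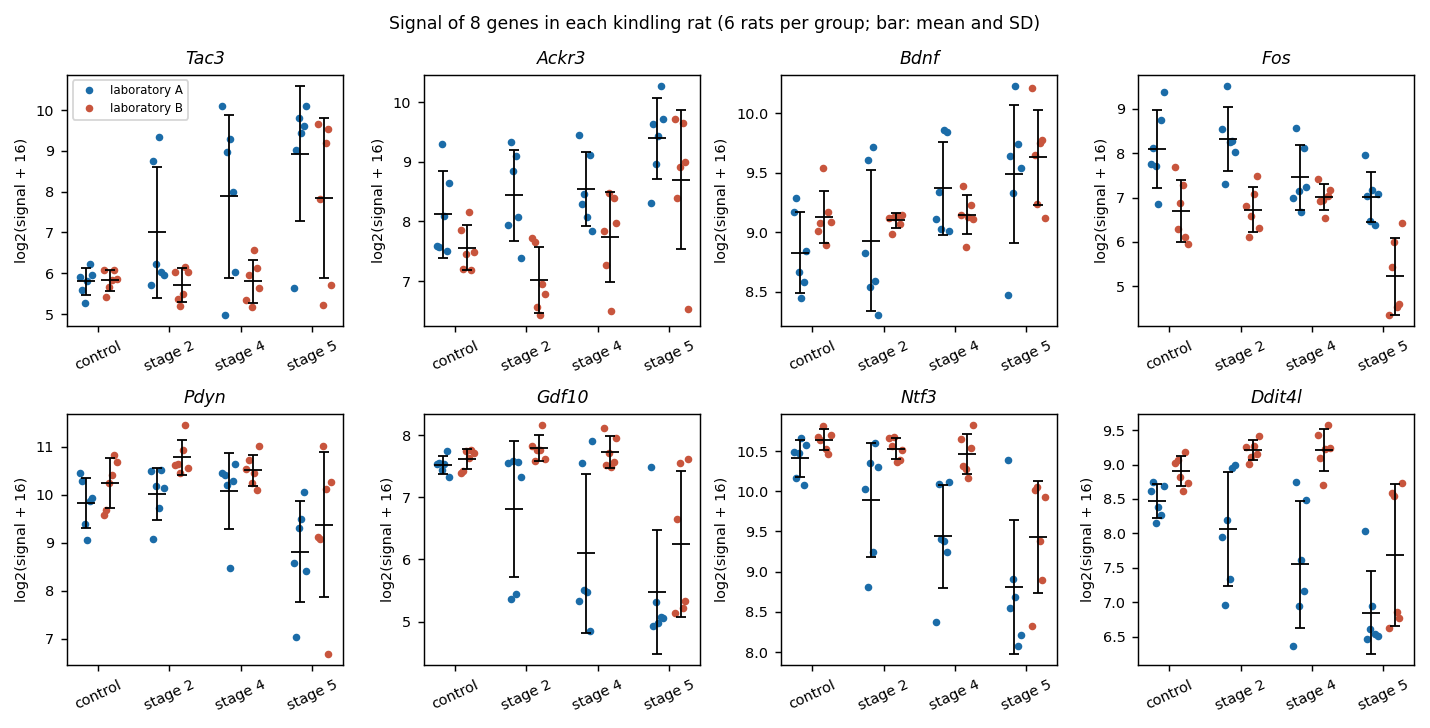
Log2(signal + 16) of 8 genes (y axis) in each rat of the control, stage 2, stage 4 and stage 5 groups (x axis) of laboratory A (blue) and laboratory B (red), with bars for the mean and SD of 6 rats. Tac3 and Gdf10 form separate high and low values within a group, and the stage 4 rats of laboratory B lie with their controls.

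Immediate early genes, which neurons transcribe within minutes of strong activity, held 4 members that fell and 1 that rose among 35 measured (11.4% and 2.86%, against 1.84% and 0.808% of all genes). The other 30 did not pass, and 30 of the 35 had a negative difference against 5918 of 10761 genes. The list median was -0.15, against -0.01 over all genes. Fos, a subunit of the AP-1 transcription factor, fell by 1.41 on the log2 scale (SE 0.27, 2.66-fold, adjusted p = 0.00234). Its values in laboratory A ran from 7.31 to 9.52 at stage 2 (median 8.26) and from 6.37 to 7.96 at stage 5 (median 7.05). In laboratory B the stage 2 rats ran from 6.11 to 7.48 (median 6.70) and the stage 5 rats from 4.36 to 6.42 (median 5.01). Values overlapped through stage 5 rat 1 (7.96) and stage 2 rat 2 (7.31) in laboratory A, and through stage 5 rat 6 (6.42) in laboratory B. Control medians were 7.93 and 6.57, so the stage 2 medians lay near those of the controls and the stage 5 medians below them.

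Arc, a synaptic regulator whose mRNA is carried to dendrites, fell by 0.67 (SE 0.15, adjusted p = 0.00952), from medians of 7.09 in both laboratories to 6.52 and 6.17. Nr4a3, an orphan nuclear receptor, had a difference of -0.70 ± 0.19 (adjusted p = 0.0334; 2 further probe sets gave -0.97 ± 0.23 and -0.25 ± 0.13), and its stage 5 medians were 6.16 and 6.40 against 6.93 and 7.18 at stage 2. The phosphatase gene Dusp1, which switches off MAP kinases, had a difference of -0.63 ± 0.16 (adjusted p = 0.0232). Dusp1 was the only gene to pass among 11 MAP kinase phosphatases and pathway inhibitors measured (9.09%, against 1.84% of all genes lower). Other members were lower without passing: Egr2 at -0.72 ± 0.24 (adjusted p = 0.0892), Nr4a1 at -0.44 ± 0.14 (0.0821) and Jun at -0.33 ± 0.13 (0.135). Egr1 (-0.04 ± 0.07) and Fosb (0.07 ± 0.13) lay near 0.

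Bdnf, brain-derived neurotrophic factor, also belongs to the immediate early list and was the member that rose. Its log2 values at stage 2 ran from 8.31 to 9.72 in laboratory A (median 8.71) and from 8.99 to 9.15 in laboratory B (median 9.13). At stage 5 they ran from 8.47 to 10.23 (median 9.59) and from 9.12 to 10.21 (median 9.70). In each laboratory 5 stage 5 rats were above the stage 2 median, and the lowest were rat 1 in A and rat 6 in B. The mean difference was 0.54 ± 0.15 (1.45-fold, adjusted p = 0.0409), and a second probe set gave 0.40 ± 0.15. The call of Bdnf was lost in 16 of the 48 tests that leave out a rat.

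The promoter of Dusp1 is shown because this gene is the member of the fallen immediate early genes whose start region is in the table used, and Fat1 because it is the other named gene with a complete cAMP response element. That element, TGACGTCA, binds CREB, which drives activity-dependent genes. Both runs are the 250 bases before the gene's start, 5′ to 3′ on the gene's strand, from RefSeq on GRCr8, with the element in capitals. Dusp1 lies at chr10:17184603-17184852 (plus strand) and Fat1 at chr16:54028610-54028859 (minus strand).
Dusp1: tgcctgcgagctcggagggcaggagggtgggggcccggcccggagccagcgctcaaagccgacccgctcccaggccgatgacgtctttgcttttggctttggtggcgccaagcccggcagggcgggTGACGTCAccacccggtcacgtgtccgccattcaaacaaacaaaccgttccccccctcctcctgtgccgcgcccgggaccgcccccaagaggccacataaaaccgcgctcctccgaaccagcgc
Fat1: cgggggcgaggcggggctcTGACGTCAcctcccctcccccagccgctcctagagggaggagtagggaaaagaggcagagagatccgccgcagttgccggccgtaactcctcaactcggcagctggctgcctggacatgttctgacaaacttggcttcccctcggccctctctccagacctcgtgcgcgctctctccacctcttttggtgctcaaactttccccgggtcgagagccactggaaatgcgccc
The element spans bases -124 to -117 of Dusp1 and -231 to -224 of Fat1, counted from the start. On either strand it was found in 3.09% of the 162 lower genes with a promoter in the table, in 2.99% of 67 higher genes and in 3.03% of 8971 tested genes. The shorter core TGACG, which lies inside it, was in 18.5% of the lower, 29.9% of the higher and 28.7% of all tested genes. The AP-1 motif TGANTCA was in 4.32%, 2.99% and 4.14%, the EGR motif GCGGGGGCG in 7.41%, 4.48% and 4.99%, and the E-box CACGTG in 7.41%, 8.96% and 8.42%. A promoter entry matched 43 of the 64 named genes by symbol.

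Of 25 growth factor and receptor genes measured, 4 fell (16%, against 1.84% of all genes), Bdnf rose (4%, against 0.808%) and 20 did not pass. Ntf3, neurotrophin 3, is a marker of granule cells. It ran from 8.81 to 10.60 at stage 2 of laboratory A (median 10.17) and from 8.08 to 10.39 at stage 5 (median 8.62). In laboratory B no stage 5 rat reached a stage 2 rat, with 8.33 to 10.05 (median 9.65) against 10.36 to 10.67 (median 10.54). The stages separated in this way in 73 of the 10761 genes in that laboratory. Ntf3 had a mean difference of -1.09 ± 0.21 (adjusted p = 0.00234), of nearly the same size in A and B (-1.09 each).

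Gdf10, a secreted member of the TGF-beta family, had most rats at either of 2 levels. The lower level was dim, with signals under the lowest median of the kindling arrays, 27.9. Stage 2 rats of laboratory A were at 7.32 to 7.59 except for rats 2 and 4, at 5.36 and 5.45, and stage 5 rats were at 4.93 to 5.31 except for rat 1, at 7.49. The controls of that laboratory lay between 7.32 and 7.74. In laboratory B the stage 2 rats were at 7.59 to 8.16, and stage 5 held 3 rats at 5.14 to 5.33, rat 2 at 6.65, and rats 3 and 6 at 7.55 and 7.61. The mean difference was -1.43 ± 0.32 (adjusted p = 0.00928). Igfbp5, which binds insulin-like growth factors, had a difference of -1.20 ± 0.28 (adjusted p = 0.0144), and Egfr, the receptor of epidermal growth factor, one of -0.71 ± 0.19 (0.0284), which a second probe set gave as -0.25 ± 0.11. The neurotrophin receptors Ntrk2 (0.01 ± 0.09) and Ntrk3 (0.23 ± 0.11) did not pass.

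In the activin and TGF-beta family, 2 of 29 genes rose and 3 fell, Gdf10 among them (6.9% and 10.3%, against 0.808% and 1.84% of all genes). Follistatin, Fst, which binds and blocks activin, had values of 5.25 to 7.55 at stage 2 and 5.02 to 7.22 at stage 5 in laboratory A, with medians of 7.23 and 5.23. In laboratory B they were 6.85 to 7.34 (median 7.21) and 4.77 to 7.19 (median 5.25). Again rat 1 of the stage 5 group in A and rat 6 of that in B were the high ones, at 7.22 and 7.19. Fst had a difference of -1.31 ± 0.26 (2.48-fold, adjusted p = 0.00375), and its other probe set gave -1.26 ± 0.27. Among the receptors, Acvr1c (ALK7) rose by 0.82 ± 0.18 (adjusted p = 0.0108) and Tgfbr1 fell by 0.30 (SE 0.06, adjusted p = 0.00876). The signal transducer Smad3 rose by 0.38 ± 0.09 (adjusted p = 0.011). Inhba, the activin A subunit, had a difference of -0.43 ± 0.16 that did not pass (adjusted p = 0.136), with a second probe set at -0.06 ± 0.10.

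Of 43 genes of the extracellular matrix and its proteases 2 rose and 3 fell (4.65% and 6.98%, against 0.808% and 1.84% of all genes), and 38 did not pass. Prss23, a secreted serine protease, rose by 1.31 ± 0.25 (adjusted p = 0.00277). Its stage 5 medians were 8.58 and 7.35 against stage 2 medians of 7.08 and 6.08. Lox encodes lysyl oxidase, a cross-linking enzyme of collagen fibres, and rose by 1.13 ± 0.25 (adjusted p = 0.00903), from medians of 5.47 and 5.59 to 6.88 and 6.99. The proteoglycan genes Gpc3 (-1.10 ± 0.30, adjusted p = 0.0366) and Sdc2 (-0.49 ± 0.09, 0.00273; other probe sets -0.32 ± 0.09 and -0.13 ± 0.08) were lower, as was Col25a1, a transmembrane collagen (-0.79 ± 0.16, 0.00463). Mmp9, a matrix metalloprotease, stood at 0.58 ± 0.21 (0.116).

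Ackr3, an atypical receptor that scavenges the chemokine CXCL12, had the second largest rise. Stage 2 rats ran from 7.39 to 9.33 in laboratory A (median 8.46) and from 6.44 to 7.73 in laboratory B (median 6.87). Stage 5 rats ran from 8.31 to 10.27 (median 9.54) and from 6.54 to 9.72 (median 8.96), so both laboratories overlapped. The difference was 1.31 ± 0.28 (adjusted p = 0.00866). Others among the largest rises were Efr3a, a plasma membrane anchor of phosphatidylinositol kinase, at 0.82 ± 0.15 (0.00234) with its 3 further probe sets at 0.69 to 0.79, Necab3 at 0.76 ± 0.15 (0.00354), and Lpar1, a receptor of lysophosphatidic acid, at 0.71 ± 0.18 (0.0224).

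Ddit4l, an inhibitor of mTOR signalling, was among the largest falls. In laboratory B its stage 2 rats lay between 9.01 and 9.42 (median 9.21) and its stage 5 rats between 6.63 and 8.73 (median 7.70), without overlap, as in 73 of the 10761 genes there. Laboratory A overlapped, with 6.96 to 8.99 (median 8.07) against 6.46 to 8.03 (median 6.58). The difference was -1.36 ± 0.24 (adjusted p = 0.00234). Plk5, a polo-like kinase found in neurons, had the most negative difference, -1.46 ± 0.36 (adjusted p = 0.0189), from stage 2 medians of 9.04 and 9.30 to 6.24 and 8.25. The protocadherin-related Fat1 (-0.95 ± 0.23, 0.0161), Vstm2l (-1.03 ± 0.22, 0.00722) and the scramblase gene Plscr1 (-0.97 ± 0.23, 0.0131) followed.

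GABA is the main inhibitory transmitter of the dentate gyrus. Of 14 genes of GABA receptors and metabolism measured, 2 rose and 1 fell (14.3% and 7.14%, against 0.808% and 1.84% of all genes), and 11 did not pass. Gabra2 and Gabrb1, subunits of synaptic GABA-A receptors, rose by 0.37 ± 0.10 (adjusted p = 0.0296) and 0.37 ± 0.09 (0.0225). Gabrd, the delta subunit of receptors outside synapses on granule cells, had a difference of -0.38 ± 0.11 (0.0412), with a second probe set at -0.20 ± 0.10. Its rats ran from 9.04 to 9.53 at stage 2 and 8.54 to 9.46 at stage 5 in laboratory A, and from 9.01 to 9.56 and 8.52 to 9.56 in laboratory B, so the groups overlapped widely. Gabra4 (0.15 ± 0.07) and Gabra5 (-0.02 ± 0.06) did not pass, nor did the glutamate decarboxylase gene Gad1 (0.09 ± 0.19). Leaving out single rats lost the call of Gabra2 in 9 tests, of Gabrb1 in 5 and of Gabrd in 16.

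None of the 16 genes of ionotropic and metabotropic glutamate receptors passed limma's test, against 2.65% of all genes. At an unadjusted p under 0.05, 1 was higher and 0 lower, against 765 and 1070 of all 10761 genes. The differences of the 16 ran from -0.14 (Grin2c) to 0.30 (Grm5). Of 37 potassium channel genes 1 rose and 1 fell (2.7% each, against 0.808% and 1.84% of all genes). Kcnd2, the Kv4.2 subunit of the dendritic A-type current, had a difference of 0.30 ± 0.08 (adjusted p = 0.0375), and its second probe set one of 0.21 ± 0.13. Kcnq5, an M-current subunit, had one of -0.30 ± 0.09 (0.047), but its other probe set gave 0.03 ± 0.11. Leaving out single rats lost the call of Kcnq5 in 36 tests and of Kcnd2 in 14. Among 22 sodium, calcium and HCN channel genes the calcium channel subunit Cacna2d3 alone passed, at -0.37 ± 0.09 (0.0224). That was 4.55% of the list, against 1.84% of all genes lower. No gene passed among 30 of calcium handling and CaM kinases, against 2.65% of all genes. At an unadjusted p under 0.05, 3 of the 30 were higher and 5 lower, against 765 and 1070 of all 10761 genes.

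Of 28 synaptic vesicle genes 2 rose (7.14%, against 0.808% of all genes), none fell and 26 did not pass. A positive difference was seen in 22 of the 28, against 4843 of all 10761 genes, and the list median was 0.08 against -0.01. Syn2, which tethers vesicles, rose by 0.35 ± 0.08 (adjusted p = 0.00866), from stage 2 medians of 9.96 and 10.07 to 10.48 and 10.44. Its other probe sets gave 0.35 ± 0.14 and 0.13 ± 0.08. Sv2a, a vesicle glycoprotein and the target of levetiracetam, rose by 0.27 ± 0.07 (0.0348). The vesicular glutamate transporter Slc17a7 stood at 0.20 ± 0.06 (0.0626). Of 21 genes of synaptic adhesion 2 rose (9.52%, against 0.808% of all genes) and none fell. Car10, a neurexin ligand, rose by 1.07 ± 0.29 (0.0334) and Nptxr, the neuronal pentraxin receptor, by 0.29 ± 0.08 (0.0469). Of 31 genes of axon guidance 1 rose and 2 fell (3.23% and 6.45%, against 0.808% and 1.84% of all genes). Sema3e (-0.76 ± 0.20, 0.026) and Efnb3 (-0.24 ± 0.07, 0.0441) were lower. Plxna4 was higher (0.30 ± 0.09, 0.047), with a second probe set at 0.27 ± 0.19. Of 14 cadherins 2 were lower (14.3%, against 1.84% of all genes), Cdh8 (-0.49 ± 0.10, 0.00403) and Pcdh10 (-0.45 ± 0.13, 0.0495). Cdh13 had a difference of -1.16 ± 0.35 that did not pass (0.064). Leaving out single rats lost the call of Pcdh10 in 38 tests, of Nptxr in 31, of Plxna4 in 30 and of Efnb3 in 18. It lost that of Sv2a in 12, of Car10 in 11, of Sema3e in 8 and of Syn2 and Cdh8 in 0.

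In the other lists few genes moved. Xbp1, a transcription factor of the unfolded protein response, was the only one of 28 stress genes to pass (0.22 ± 0.06, adjusted p = 0.0491). That was 3.57% of the list, against 0.808% of all genes higher. The call of Xbp1 was lost in 35 of the tests that leave out a rat. Of 17 glucocorticoid genes, Pdk4, a kinase that restrains pyruvate oxidation, rose by 0.52 ± 0.12 (0.0161) and Nr3c1, the glucocorticoid receptor itself, had a difference of -0.24 ± 0.07 (0.0414). Each was 5.88% of the list, against 0.808% of all genes higher and 1.84% lower. Pdk4 was dim. Its mean log2 values at stages 2 and 5 were 4.82 and 5.41 in laboratory A and 4.57 and 5.01 in B. Its difference had a value in 62 of the 63 alternatives, from 0.22 to 0.99, and its call was lost in 2. Rgs9 rose by 0.23 ± 0.07 (0.047), the only one of 13 G protein signalling regulators to pass (7.69%, against 0.808% of all genes). Its call was lost in 33 of the tests that leave out a rat. No gene passed limma's test among 45 of oxidative phosphorylation, 22 of cholesterol synthesis, 16 of the circadian clock and 16 of cell division. At an unadjusted p under 0.05 these lists held 2, 2, 2 and 5 genes, against 1835 of all 10761. Of all genes 2.65% passed, so 0 in lists this short says little.

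**Figure D4:**
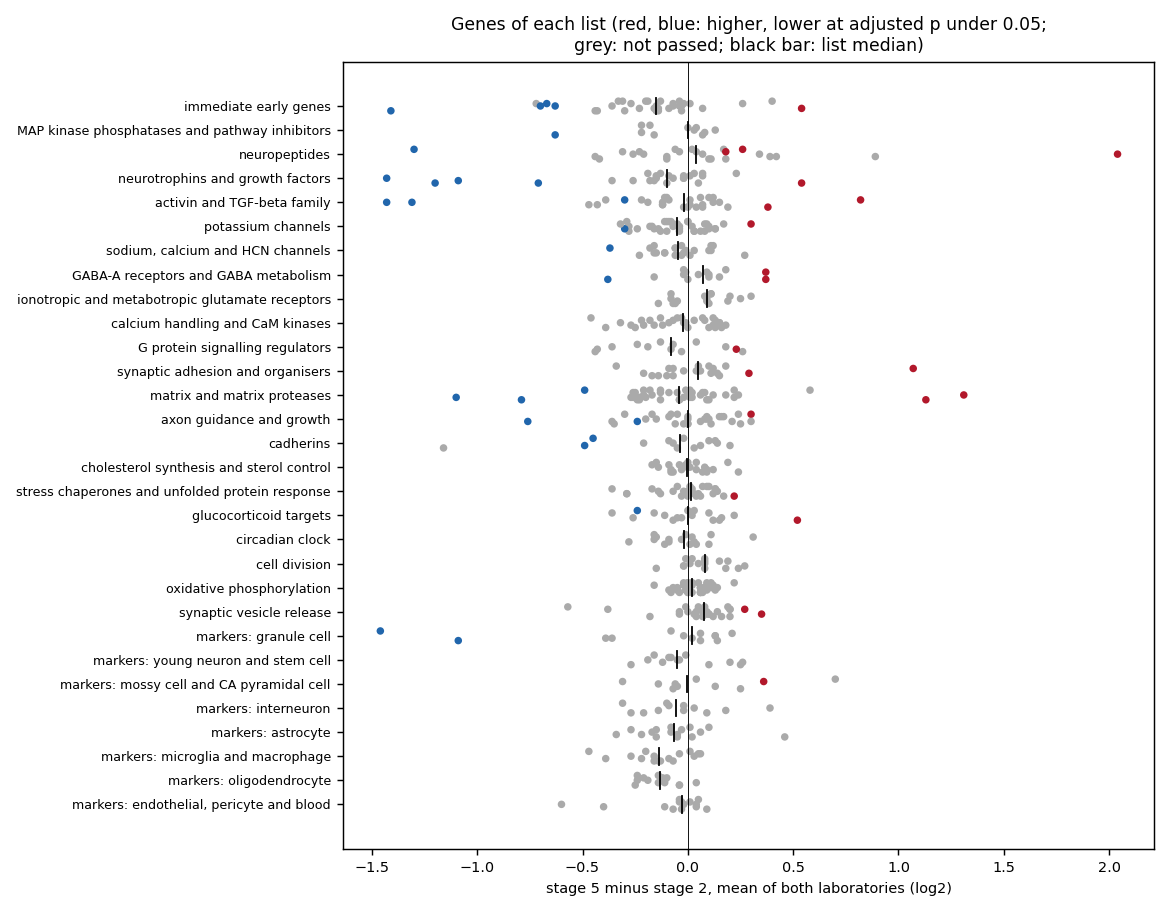
Stage 5 minus stage 2 difference, mean of both laboratories (x axis, log2), of the measured genes of each list (rows), with genes called higher in red, lower in blue and the others in grey. The black bar is the list median, which lies between -0.15 (immediate early genes) and 0.09 (glutamate receptors).

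Prox1, the granule cell transcription factor, had a median signal of 1710 and a lowest of 1420, with a difference of 0.14 ± 0.07 (adjusted p = 0.278). Other markers of these cells were weaker in some rats, with a lowest signal of 40.3 for Plk5 and 53.5 for Dsp. Calbindin, Calb1, a calcium buffer of mature granule cells, had one of -0.39 ± 0.12 (0.0718), which passed without stage 5 rat 1 of laboratory A (-0.44, adjusted p = 0.0229). Of 13 granule cell markers 2 were lower, Plk5 and Ntf3 (15.4%, against 1.84% of all genes). The summed signal of the list ran from 12600 to 15100 at stage 5 against 12900 to 15300 at stage 2 in laboratory A, and from 14700 to 19800 against 15700 to 18700 in laboratory B. In a captured layer, fewer cells of a type and less RNA per cell cannot be told apart.

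Markers of other cell types gave no called gene except Nrip3, in the list of mossy and CA pyramidal cells (0.36 ± 0.07, adjusted p = 0.00593; other probe sets 0.24 ± 0.11 and 0.14 ± 0.08). It was 10% of the measured genes of that list, against 0.808% of all genes higher. The summed signals of both stages overlapped in both laboratories for every list. Of 14 oligodendrocyte markers 13 had a negative difference, with a median of -0.13, against 5918 of all 10761 genes and a median of -0.01. They held no gene past limma's test, against 2.65% of all genes, and 0 at an unadjusted p under 0.05, against 1835 of 10761. Their sums overlapped widely: 3060 to 8330 at stage 5 and 2830 to 6070 at stage 2 in laboratory A, and 2340 to 5370 against 3070 to 6450 in laboratory B. Of 16 microglial markers 12 were negative, with a median of -0.13 and none past the test (1 at an unadjusted p under 0.05), and sums ran from 601 to 1160 against 618 to 2210 and from 460 to 718 against 651 to 740. The astrocyte sums were 7550 to 10100 against 7740 to 10300 and 6490 to 8310 against 6240 to 8870, while Gfap, an astrocyte filament gene, had a difference of 0.46 ± 0.14 (0.0647), which passed without stage 5 rat 1 of laboratory A (0.49, adjusted p = 0.0338). Interneuron sums ran from 2110 to 4030 against 2740 to 4550 and from 2150 to 3590 against 1770 to 4090. The mossy and CA list ran from 1450 to 1890 against 1320 to 1620 and from 1410 to 1830 against 1160 to 1570, and the list of young neurons and stem cells from 4540 to 5860 against 4910 to 5590 and from 4560 to 5580 against 4740 to 4940. The list of endothelial, pericyte and blood markers also holds Ttr, whose signal alone ran from 16.6 to 3410 over the 24 rats. The sums of that list ran from 557 to 4290 (median 1420) against 935 to 3850 (median 2770) in laboratory A. In laboratory B they ran from 470 to 725 (median 570) against 454 to 700 (median 602). Signals differed widely within a list. Gad1 of interneurons had a median signal of 1720, but Slc32a1 one of 49.7 and Pvalb one of 42.3. Gfap and the myelin gene Mbp had median signals of 1060 and 1920, but Aldh1l1 of astrocytes one of 26.2 and Mag of oligodendrocytes one of 38.1. Aif1 and Tyrobp of microglia were dim, at 15.5 and 9.97, under the median of every array. Ctss and C1qa of the same list were at 294 and 65.5. No marker was at 0. Their part in the 285 differences was not tested.

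Array measures were compared between the stages in 8 tests. In laboratory A the median signal was 30.3 ± 1.78 at stage 5 and 32.8 ± 1.71 at stage 2 (SD, n = 6 each, two-sided exact permutation p = 0.0411, 0.208 after adjustment over 8 tests). In laboratory B it was 31.4 ± 1.96 and 31.2 ± 2.44 (exact permutation p = 0.907). The log2 ratio of 3' to 5' signal in laboratory A was 1.01 ± 0.249 at stage 5 and 1.27 ± 0.252 at stage 2 for Gapdh, and 3.10 ± 0.157 and 3.41 ± 0.398 for beta-actin (exact permutation p = 0.104 each). In laboratory B, stage 5 rat 1 had the highest ratios of its group, 2.77 for Gapdh and 5.06 for beta-actin. With the median signal as a term in the fit 132 genes passed, 126 of them among the 285. With each array centred on its median 171 passed (168 among the 285), and after quantile normalization 243 (222 among the 285). The part of the median signal in the difference was not tested otherwise. Rat 1 of laboratory A stage 5 had a median signal of 32.6, the highest of its group, and a log2 ratio of 3' to 5' Gapdh signal of 0.981, inside the range of its group.

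The stage 4 rats and the controls took no part in the contrast beyond the shared estimate of the spread, so they show the same genes in other animals. In laboratory A, 82 of the 87 genes higher at stage 5 were also above control at stage 4, against 5837 of 10761 genes, and 182 of the 198 lower genes were below control, against 4924. The medians of the stage 4 minus control differences were 0.175 and -0.219. In laboratory B the corresponding counts were 52 of 87, against 5367 of all genes, and 84 of 198, against 5394, with medians of 0.018 and 0.014. No single gene passed limma's test at stage 4 over both laboratories (504 at an unadjusted p under 0.05).

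Single rats showed this as well. Taken over the 87 higher genes and relative to the controls of the laboratory, 4 of the 6 stage 4 rats of laboratory A had medians between 0.26 and 0.35, while rats 2 and 6 were at -0.02 and 0.03. Over the 198 lower genes the same 4 rats had medians of -0.28 to -0.39 and the other 2 of 0.01 and 0.00. All 6 stage 4 rats of laboratory B lay between -0.08 and 0.05 for the higher genes. Tac3 followed this split, with stage 4 values of 7.98 to 10.11 in rats 1, 3, 4 and 5 of laboratory A and of 4.99 and 6.02 in rats 2 and 6. Gdf10 was at 4.85 to 5.50 in the first 4 and at 7.55 and 7.90 in the other 2, and it was at 7.49 to 8.12 in the stage 4 rats of laboratory B. Pdyn did not follow it: its stage 4 minus control difference was 0.25 in laboratory A.

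**Figure D5:**
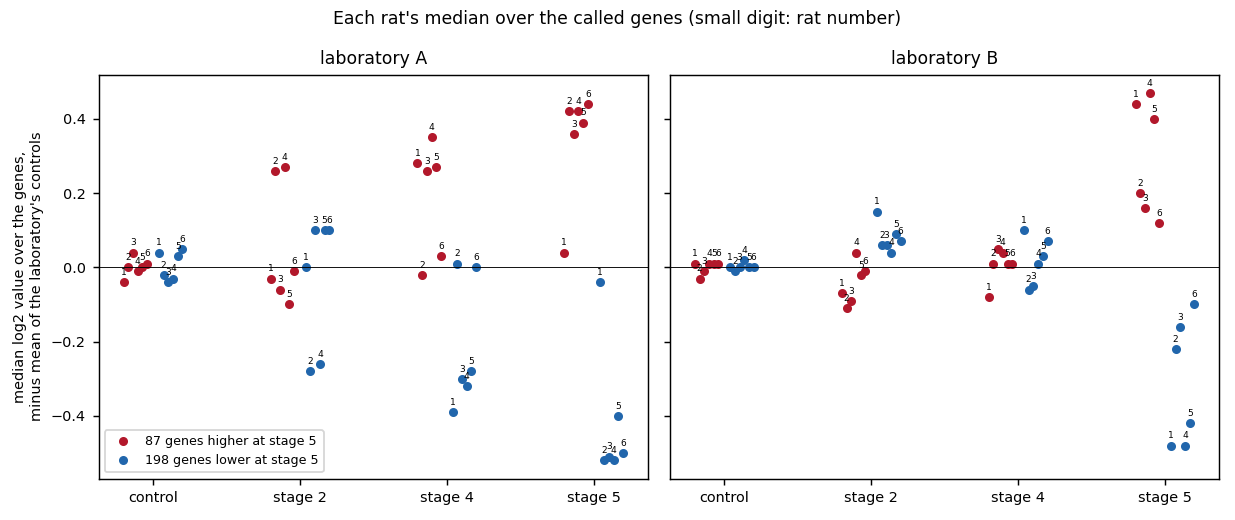
Median log2 value of each rat over the 87 genes called higher (red) and the 198 called lower (blue) at stage 5, minus the mean of the controls of the same laboratory (y axis), by stage (x axis) and laboratory; small digits are rat numbers. Rats at stage 2 and stage 5 chose the genes, so only the stage 4 rats are independent: 4 of 6 in laboratory A reach 0.26 to 0.35 over the higher genes, and all 6 in laboratory B lie between -0.08 and 0.05.

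The status epilepticus models of the series share no sample with this contrast, and the 285 genes were set against all 9 of their comparisons: days 1, 3 and 10 against control after pilocarpine, after kainate and in the model labelled SSSE. This was added after the earlier results were known. The days of a model share its controls, and SSSE came from 1 laboratory. The share of the 87 higher genes called higher ran from 10.3% (SSSE day 10) to 65.5% (kainate day 1), and that of the 198 lower genes called lower from 3.03% to 59.6% in the same comparisons. In each of the 9 these shares were above the share of all genes called in that direction.

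After kainate, the higher genes called were 57 of 87 at day 1 (65.5%, against 22.2% of all genes), 46 at day 3 (52.9%, against 4.66%) and 38 at day 10 (43.7%, against 2.57%). The lower genes called were 118 of 198 (59.6%, against 19.4%), 69 (34.8%, against 3.3%) and 71 (35.9%, against 3.71%). After pilocarpine, the higher genes called were 40 (46%, against 15.8%), 40 (46%, against 7.74%) and 32 (36.8%, against 3.82%), and the lower genes 102 (51.5%, against 16.3%), 54 (27.3%, against 3.92%) and 58 (29.3%, against 5.11%). In SSSE they were 39 (44.8%, against 5.51%), 26 (29.9%, against 1.66%) and 9 (10.3%, against 0.177%) for the higher genes. For the lower genes they were 91 (46%, against 7.02%), 32 (16.2%, against 1.48%) and 6 (3.03%, against 0.167%). Calls in the opposite direction were most frequent at day 1, with 5 higher and 10 lower genes after kainate and 6 and 8 after pilocarpine.

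Several members had large differences from control after status epilepticus. Prss23 stood 4.68 ± 0.19 above control at day 1 of kainate, 2.92 ± 0.23 at day 1 of pilocarpine and 3.05 ± 0.37 at day 1 of SSSE, and it passed limma's test in all 9 comparisons. Lox stood at 4.93 ± 0.27, 4.81 ± 0.45 and 2.83 ± 0.58 at day 1. Plk5 was at -3.81 ± 0.28, -3.38 ± 0.39 and -3.81 ± 0.56, and Gdf10 at -2.59 ± 0.20, -2.20 ± 0.20 and -2.55 ± 0.38. Each of these had an adjusted p under 0.05.

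Other members passed in some comparisons and not in others. Tac3, the largest rise between the kindling stages, passed at days 1 and 10 of kainate (1.20 ± 0.38 and 1.65 ± 0.38) and in none of the other 7 comparisons, where it lay between -0.40 and 0.90. Fos passed in 1 of 9, and there with the opposite sign, at 2.19 ± 0.59 on day 1 of pilocarpine (adjusted p = 0.00332). Arc passed in none, with values from -0.61 to 0.93. Gabra2 passed only at day 1 of pilocarpine and with the opposite sign (-0.42 ± 0.17, adjusted p = 0.0458). Gabrd was lower than control in all 9, from -1.53 ± 0.16 at day 1 of kainate to -0.38 ± 0.31 at day 10 of SSSE, and passed in 7. Differences between these experiments and kindling were not tested.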

How the data were processed

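The authors deposited one table of signal intensity per probe set for each array, made with MAS5 per the submitters' processing notes, with the version not given in the sources used here. Each array's 2% trimmed mean lay between 150.04 and 150.06. Of 31099 probe sets, 57 controls were left out. Gene symbols came from the platform annotation, which can be old: 20826 probe sets had 1 symbol, 436 several and 9780 none. A probe set was kept where it exceeded the median of its array in at least 6 of 164 rats, and the one with the highest mean stood for its gene, which gave 10761 genes. Repeated arrays of a rat were averaged. Log2(signal + 16) was fitted with limma 3.58.1 in R 4.3.3, with 1 mean per group over 48 kindling rats and Benjamini-Hochberg adjustment. The test was tested on simulated data, where it recovered 56% of genes changed by 0.3 and 90% of those changed by 0.5 (log2, 50 genes each among 10761).

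Named genes were the 12 largest rises and falls, up to 4 called members per list, the 5 genes with the smallest p for the difference between laboratories, and 17 genes taken from earlier results. The members, lists and rules were chosen with earlier results of these data known. Rat numbers did not pair the rats (correlations -0.16 to 0.26 in laboratory A and -0.17 to 0.29 in B), so no block was used. The number of arrays limits the precision. Alternatives covered the pseudocount, filter, scaling, weights, probe sets, groups in the fit, blocks and single rats. Added ones, covariates for median signal and for the Gapdh ratio and leaving out control and stage 4 rats, were chosen after seeing the data.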

Additional observations from a re-analysis of the deposited data

Results flagged for a closer look

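In 31 of 256 groups of 6 rats (64 named genes in 4 groups), 1 rat stood apart from the other 5 by a gap that was large against the group's range (Dixon's 95% limit), which chance gives in about 1 in 20 groups. Of these, 21 were stage 5 rat 1 of laboratory A. That rat had the lowest log2 value of its group for Tac3 (5.64), Acvr1c (5.28), Necab3 (8.39), Serinc2 (7.25), Syn2 (9.98) and Fosl2 (5). It had the highest value for the secreted and growth factor genes Gdf10 (7.49), Fst (7.22), Ntf3 (10.39) and Sema3e (9.03), for Plk5 (8.91), Ddit4l (8.03), Vstm2l (7.87), Nr4a3 (7.09) and the receptor Egfr (7.48), and for the matrix and adhesion genes Gpc3 (7.56), Col25a1 (9.51), Fat1 (9.16) and Pcdh10 (5.99). Among channels it was highest for Kcnq5 (8.79) and Cacna2d3 (9.71).

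The other 10 were spread over 8 rats. In laboratory A, stage 2 rat 5 was lowest for Lpar1 (5.8) and highest for Fosl2 (7.2), and stage 5 rat 6 was highest for Bcap29 (8.42). In laboratory B, stage 2 rat 5 was lowest for Necab3 (8.2) and highest for Pcdh10 (6.03), rat 6 was lowest for Gpc3 (7.44), rat 4 was lowest for Gabrd (9.01) and rat 1 was highest for Sdc2 (9.99). At stage 5 of laboratory B, rat 1 was highest for Gabra2 (9.69) and rat 3 for Cdh8 (7.76).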

How the results depend on the processing

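The count of 285 genes moved by more than 1.5 times under 5 alternatives. It was 58 (10 higher, 48 lower) with only the 24 stage 2 and stage 5 rats in the fit, 51 (11 and 40) with all groups of the series, 171 (108 lower) with each array centred on its median, 132 (30 and 102) with the median signal as an added covariate, and 735 (303 and 432) with array weights. Leaving out single rats gave 126 to 649 genes, 29 to 244 higher and 97 to 405 lower. Counts within 1 laboratory rested on few genes. Laboratory A gave 9 as reported, 5 after centring, 3 with the 24 rats, 0 with all groups, 212 with array weights, 2 with the median signal, 3 with the Gapdh ratio and 2 when fitted alone, and 1 to 175 without single rats. Laboratory B gave 23 as reported, 11 with pseudocount 1, 8 without a filter, 46 with the filter on the 24 rats, 13 after quantile normalization, 0 after centring, 0 with the 24 rats, 2 with all groups, 112 with array weights, 82 with the median signal, 11 with the Gapdh ratio and 69 when fitted alone, and 0 to 158 without single rats. The difference between laboratories had 1 gene without a filter and 0 to 2 without single rats. With a replicate block 322 genes passed (rat number within laboratory; laboratory B 10) or 327 (over both; laboratory B 54), although correlations between rats of the same number went both ways. The causes were not tested. Of 54 called named genes none changed sign and 45 lost the call under at least 1 of 63 alternatives, 25 of them without laboratory A stage 2 rat 5. Fosl2, not called, turned to 0.05 with the mean of all probe sets and to 0.04 without that rat, within a range of -0.13 to 0.04 over single rats left out. No rat met the correlation limit for exclusion, so that alternative gave no value.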
